A study of Mus musculus with 15 samples.

Results

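The genes described belong to the mouse carboxylesterase family: Ces1c, Ces1d, Ces1e, Ces1f and Ces1g, Ces2a, Ces2c and Ces2e, and Ces3a and Ces3b. They were taken by name, as a set of 10 genes out of 37991 in the count table, with earlier results of these data known. All 10 were abundant enough to be among the 14258 genes tested. RNA sequencing counts came from 15 libraries of whole liver, 5 in each of 3 groups, and each library was 1 female C57BL/6 mouse on chow. Young WT mice were 90 days old and old WT mice 600 days old, both with intact S6K1. Old KO mice were also 600 days old and carried a whole-body knockout of S6K1, the ribosomal S6 kinase encoded by Rps6kb1, bred from heterozygous parents. No young KO library was analysed here, so genotype was compared at 600 days alone. In whole liver, fewer cells of a type and less RNA per cell cannot be told apart.

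Carboxylesterases are serine hydrolases that cut ester, amide and thioester bonds. In hepatocytes most of them sit in the lumen of the endoplasmic reticulum, where they hydrolyse drugs and other foreign esters and also stored lipids. Ces1d, also called triacylglycerol hydrolase, releases fatty acids from stored triacylglycerol for the assembly of very low density lipoprotein. Ces1f is a related lipid hydrolase, Ces1g is a lipase and the mouse enzyme often compared with human CES1, and Ces1e, or egasyn, holds beta-glucuronidase in the endoplasmic reticulum. Ces1c is the esterase of mouse plasma, secreted by the liver. Ces2 enzymes prefer esters with a small acyl group and a large alcohol, and Ces3a and Ces3b are liver esterases of a separate branch.

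The 10 genes lie in 2 clusters on chromosome 8 of the mm9 genome (NCBIM37). The 5 Ces1 genes are on the minus strand within 238.3 kb, from Ces1c (chr8:95622914-95655182) through Ces1d (chr8:95689967-95721737), Ces1e (chr8:95725117-95753518) and Ces1f (chr8:95780135-95803646) to Ces1g (chr8:95826268-95861207). The other 5 begin 11.4 Mb further along, are on the plus strand and span 359.9 kb. They run from Ces2a (chr8:107257903-107265530) through Ces2c (chr8:107370968-107378383), Ces2e (chr8:107450160-107458572) and Ces3a (chr8:107572499-107582314) to Ces3b (chr8:107607653-107617829). In the annotation, 0 members overlapped another gene on either strand.

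The coding sequences, of 554 to 571 codons, were 74.6% to 81.6% identical among the Ces1 genes, 83.0% to 84.0% among the Ces2 genes and 62.2% to 65.9% between the branches. Ces3a and Ces3b were 95.3% identical. All 10 held the Gly-X-Ser-X-Gly codons of the active-site serine, which was codon 221 to 232. The last codons are shown because they carry the signal that keeps these proteins in the endoplasmic reticulum, a His-X-Glu-Leu ending, whose 4 codons are in capitals and are followed by the stop codon.
Ces1d: CATGTTGAGCTCtga
Ces1e: CACACTGAGCTGtga
Ces1g: CATGTTGAACTGtga
Ces2e: CACAAAGAGTTGtag
Ces1c: acagaacacaaatga
Ces3b: ccagaggagctctga
This ending was found in 7 of the 10 genes, Ces1f, Ces2a and Ces2c being the others that have it. It was not found in Ces1c, nor in Ces3a and Ces3b, which share the same last codons. Only this exact ending was searched. The codons of Ces3a and Ces3b also end in Glu-Leu, and whether they act as such a signal was not tested.

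Promoter sequence was available from RefSeq (build GRCm38.p6) for 7 members, Ces1c, Ces1e, Ces1g, Ces2a, Ces2c, Ces2e and Ces3b. The 250 bases before the start are shown for Ces3b, the member that passed the test in both comparisons with old WT liver, and for Ces1g, a member that moved the other way with age. They lie at chr8:105083505-105083754 on the plus strand for Ces3b and at chr8:93337210-93337459 on the minus strand for Ces1g. Capitals mark each match to the motifs searched, which were AGGTCA (a nuclear receptor half-site), TTCNNNGAA (a STAT element), GTTAAT (a half-site of the hepatocyte factor HNF1), CCAAT and TATAAA, each on both strands.
Ces3b: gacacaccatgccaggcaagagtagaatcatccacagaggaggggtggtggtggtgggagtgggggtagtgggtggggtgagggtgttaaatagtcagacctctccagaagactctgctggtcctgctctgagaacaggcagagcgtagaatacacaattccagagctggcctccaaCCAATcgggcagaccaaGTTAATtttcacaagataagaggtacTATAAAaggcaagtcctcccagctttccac
Ces1g: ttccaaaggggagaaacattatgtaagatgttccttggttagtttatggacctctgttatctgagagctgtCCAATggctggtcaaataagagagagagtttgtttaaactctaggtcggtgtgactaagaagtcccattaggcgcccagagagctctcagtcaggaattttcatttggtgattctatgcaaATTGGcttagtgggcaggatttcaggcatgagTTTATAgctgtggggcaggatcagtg
In Ces3b, CCAAT began 73 bases, GTTAAT 56 bases and TATAAA 30 bases before the start. In Ces1g, CCAAT was matched 179 bases before the start and, on the opposite strand, 58 bases before it, and TATAAA on the opposite strand 26 bases before it. Of the 7 promoters, 5 held CCAAT, 2 TATAAA, 1 GTTAAT and 1 (Ces2a) AGGTCA, and 0 held TTCNNNGAA. Of all 32851 promoters searched, 33.8% held CCAAT, 12.4% TATAAA, 6.43% GTTAAT, 14.0% AGGTCA and 7.02% TTCNNNGAA. A match describes the letters only.

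Library totals lay between 21801754 and 38065359 counts. Rps6kb1 was 33.3 to 45.4 CPM (counts scaled by the TMM library size to a total of 1000000) in the 10 WT libraries and 15.2 to 20.8 in the 5 old KO libraries, with no overlap. Old WT 7 was the library that stood apart the most. Its log2 CPM correlated across genes at a mean of 0.975 with the other old WT libraries, against 0.982 to 0.985 for those, its loading on the second principal component of log2 CPM was 0.65 (-0.44 to 0.23 in the others), and it was the lowest old WT library for 7 of the 10 members. The fold changes of the members against old WT liver and the levels in it are therefore given with and without old WT 7. The members' own values were part of this choice, so the values without old WT 7 are no separate evidence. Young WT 6, with the fewest counts, correlated at a mean of 0.978 with its own group, against 0.984 to 0.985 for the other young WT libraries. Leaving out young WT 6 gave 3284 genes called with age, against 2719 without old WT 7 and 2685 with all libraries. Its effect on the members is given only where a call changed. The 50-base reads of some members cannot always be assigned, because exact 50-base stretches recur in relatives: 69.03% of the stretches of Ces2c (most of them in the pseudogene Ces2d-ps), 30.85% of Ces3a and 26.13% of Ces3b (each in the other), 13.38% of Ces1c and at most 4.55% of the other 6. Counts of Ces2c, Ces3a and Ces3b are uncertain to that extent.

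Ces1c was the most abundant member in every group. Per exon length, its level was 1227 CPM per kb of exon in young WT liver (SD 119.5, n = 5), 1361 (SD 49.0) in old WT and 1591 (SD 89.1) in old KO liver. Ces1d, the triacylglycerol hydrolase, was the next, at 375 ± 78.0, 532 ± 112 and 523 ± 128 on the same scale. At the other end, Ces2c reached 2.13 ± 1.02, 2.35 ± 1.18 and 2.32 ± 0.503, from 42 to 280 counts a library. In young WT liver, Ces3a followed Ces1d, at 203 ± 39.5, and its lowest library, 174, was above the highest Ces1g library, 121. Ces1g, Ces2a, Ces1f and Ces1e came next, with means of 108, 85.4, 80.8 and 71.2 and ranges that overlapped from each to the next. Ces3b, at 55.3 ± 11.1, overlapped Ces1e, and Ces2e, at 32.8 ± 4.14, lay below every Ces3b library.

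**Figure D1:**
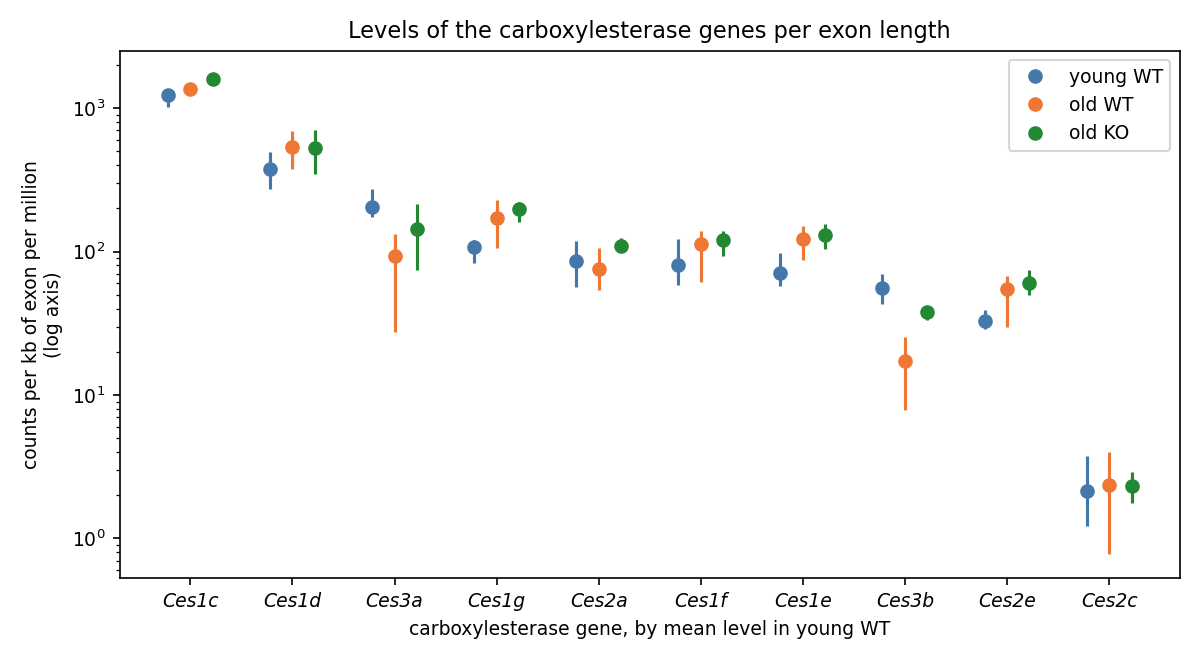
Levels of the 10 carboxylesterase genes per exon length, in CPM per kb of exon on a log axis, for young WT, old WT and old KO liver; points are means of 5 libraries and lines run from the lowest to the highest library. Ces1c and Ces1d lead in all 3 groups, Ces2c is lowest, and Ces3a moves from the third place in young WT to the sixth in old WT.

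The order of the members between Ces1d and Ces2e changes with the transcript length used, so it is given for this length only. In old WT liver the order was different. Ces3a was in the sixth place, at 92.5 ± 41.2, below Ces1g (171 ± 47.0), Ces1e (121 ± 26.8) and Ces1f (112 ± 30.7), although its range of 27.7 to 132 overlapped all 3. Ces3b was below Ces2e, at 17.4 ± 7.27 against 54.7 ± 15.6, and the highest Ces3b library, 25.5, was under the lowest Ces2e library, 29.8. In old KO liver Ces3a came after Ces1g, at 143 ± 50.9, with a range of 74.2 to 215 that overlapped those of Ces1g, Ces1e, Ces1f and Ces2a. The 5 Ces1 genes made up 83.1% ± 2.49 of the summed level of the 10 members in young WT liver, 90.6% ± 1.67 in old WT and 87.9% ± 1.00 in old KO liver. The Ces3 pair made up 11.6% ± 2.23, 4.24% ± 1.46 and 6.13% ± 1.48, and its lowest young library, 10.2%, was above its highest library in old WT, 5.68%, and in old KO, 8.43%. The Ces2 genes held 5.36% ± 0.825, 5.19% ± 0.653 and 5.96% ± 0.897, with overlapping ranges. Without old WT 7, the shares in old WT liver were 89.9% ± 1.01 for the Ces1 genes, 4.83% ± 0.743 for the Ces3 pair and 5.23% ± 0.745 for the Ces2 genes (n = 4). Without it the 10 members also kept their places in the order of that group, with means of 1362 for Ces1c, 571 for Ces1d, 187 for Ces1g, 129.9 for Ces1e, 125 for Ces1f, 109 for Ces3a, 75.6 for Ces2a, 61.0 for Ces2e, 18.6 for Ces3b and 2.74 for Ces2c. Together the members took 0.522% ± 0.0260 of all counts in young WT, 0.618% ± 0.0801 in old WT (0.646% ± 0.0570 without old WT 7) and 0.675% ± 0.0302 in old KO liver.

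The comparison of old WT with young WT liver asked how age changed these genes. Ces1e, Ces1g and Ces2e rose with age, by 1.71-fold, 1.59-fold and 1.67-fold, and Ces3a and Ces3b fell, to 0.456 and 0.314 of their young level. In all, 5 of the 10 members passed the test (adjusted p under 0.05, edgeR quasi-likelihood test adjusted over 14258 genes), 3 higher and 2 lower. Of all genes tested, 9.92% passed as higher and 8.91% as lower. The median log2 fold change of the 10 members was 0.31, beside 0.01 over all genes.

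Ces3b gave the largest change of the 10. Its 5 young WT libraries had 129, 163, 128, 179.9 and 110.4 CPM, and the old WT libraries 20.2, 65.5, 46.4, 31.9 and 58.6 CPM. The groups did not overlap, and the highest old library was well under the lowest young one. The log2 fold change was -1.67 (SE 0.24, adjusted p = 0.000523), and without old WT 7 it was -1.57 (adjusted p = 0.000935).

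Ces3a, its close relative, had 417, 372, 378, 555 and 357 CPM in young WT and 245, 214, 269.9, 56.8 and 162 CPM in old WT liver. All old libraries were below all young ones, with old WT 7 the lowest at 56.8 CPM. The log2 fold change was -1.13 (SE 0.326, adjusted p = 0.0246), and it was -0.89 (adjusted p = 0.0174) without old WT 7. The call was lost without old WT 10 (adjusted p = 0.0509) and without young WT 4 (adjusted p = 0.0567). Among all genes, 5.67% had all old WT libraries below all young WT libraries, and 2 of the 10 members did.

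Per exon length, Ces3b stood at 24.6% to 34.9% of Ces3a in the young WT libraries, at 6.58% to 44.9% in old WT and at 19.5% to 51.8% in old KO liver. The lowest of these values was old WT 1, where Ces3b was at its lowest, and the highest old WT value was old WT 7, where Ces3a was at its lowest. The 2 genes thus had different lowest libraries in old WT liver, although each can lend the other some of its reads.

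Ces1e, which anchors beta-glucuronidase, had 142, 118, 151, 122 and 204 CPM in young WT and 205, 314, 281, 182 and 277 CPM in old WT liver. The groups overlapped through young WT 6 and old WT 7. The log2 fold change was 0.77 (SE 0.171, adjusted p = 0.00645), and 0.88 (adjusted p = 0.00268) without old WT 7. Beta-glucuronidase itself, Gusb, had 31.9 ± 7.13 CPM in young WT and 26.6 ± 4.73 in old WT liver, a log2 fold change of -0.27 that did not pass (adjusted p = 0.24). In old KO liver Gusb had 22.7 ± 3.01 CPM, lower than in young WT liver, at a log2 fold change of -0.49 (adjusted p = 0.0315).

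Ces1g had 246, 200.4, 283, 267 and 288 CPM in young WT and 364, 547, 475, 251.9 and 403 CPM in old WT liver. Apart from old WT 7, every old library was above every young one. The log2 fold change was 0.67 (SE 0.167, adjusted p = 0.0121), or 0.81 (adjusted p = 0.00122) without that library.

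Ces2e showed the same arrangement, with 106, 80.2, 78.1, 90.1 and 88.4 CPM in young WT and 135, 182, 179, 80.4 and 162 CPM in old WT liver. Its log2 fold change was 0.74 (SE 0.182, adjusted p = 0.0113), and 0.90 (adjusted p = 0.00051) without old WT 7.

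Ces1d and Ces1f, the lipid hydrolases, did not pass in the fit over all libraries, and both passed without old WT 7. Ces1d had 1168, 861, 892, 649 and 874 CPM in young WT and 1217, 1628, 1253, 884 and 1314 CPM in old WT liver, and old WT 7 was the old library inside the young range. Its log2 fold change was 0.50 (SE 0.189, adjusted p = 0.0724), against 0.61 (adjusted p = 0.0285) without old WT 7, and it also passed without young WT 1 (adjusted p = 0.0467) and without old KO 1 (adjusted p = 0.0487). Ces1f had 296, 192, 228, 213 and 399 CPM in young WT and 424, 405, 459, 202 and 355 CPM in old WT liver. Young WT 1, 3, 4 and 6 lay in the old WT range, and old WT 7 and old WT 10 in the young WT range. Its log2 fold change was 0.48 (SE 0.215, adjusted p = 0.135), against 0.64 (adjusted p = 0.0243) without old WT 7 and 0.68 (adjusted p = 0.0257) without young WT 6. Leaving out old WT 7 thus gave 7 members called, 5 higher and 2 lower, in a fit in which 10.3% of all genes passed as higher and 8.67% as lower. Old WT 7 was the lowest old WT library for Ces1d, Ces1e, Ces1f, Ces1g and Ces2e. Leaving it out thus raised their old WT means by construction. The calls of Ces1d and Ces1f and the larger fold changes of Ces1e, Ces1g and Ces2e in that fit are no separate evidence. The same holds for leaving out young WT 1 for Ces1d and young WT 6 for Ces1f, their highest young WT libraries.

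Ces1c, the plasma esterase, differed little but without overlap: it had 2919, 3050.0, 3052, 2849 and 2378 CPM in young WT and 3098, 3361, 3099, 3144 and 3101 CPM in old WT liver. It was the only member of the 10 with all old WT libraries above all young WT ones, beside 5.78% of all genes, and its log2 fold change of 0.15 (SE 0.0892) did not pass (adjusted p = 0.257), nor did the 0.16 without old WT 7 (adjusted p = 0.256). Ces2a, with 134 to 279.9 CPM in young WT and 127 to 249.9 in old WT liver, had a log2 fold change of -0.18 (SE 0.18, adjusted p = 0.528), or -0.17 (adjusted p = 0.584) without old WT 7. Ces2c, at 2.41 to 7.37 and 1.54 to 7.87 CPM, had one of 0.14 (SE 0.352, adjusted p = 0.82), the widest error of the 10, and one of 0.36 (adjusted p = 0.422) without old WT 7.

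**Figure D2:**
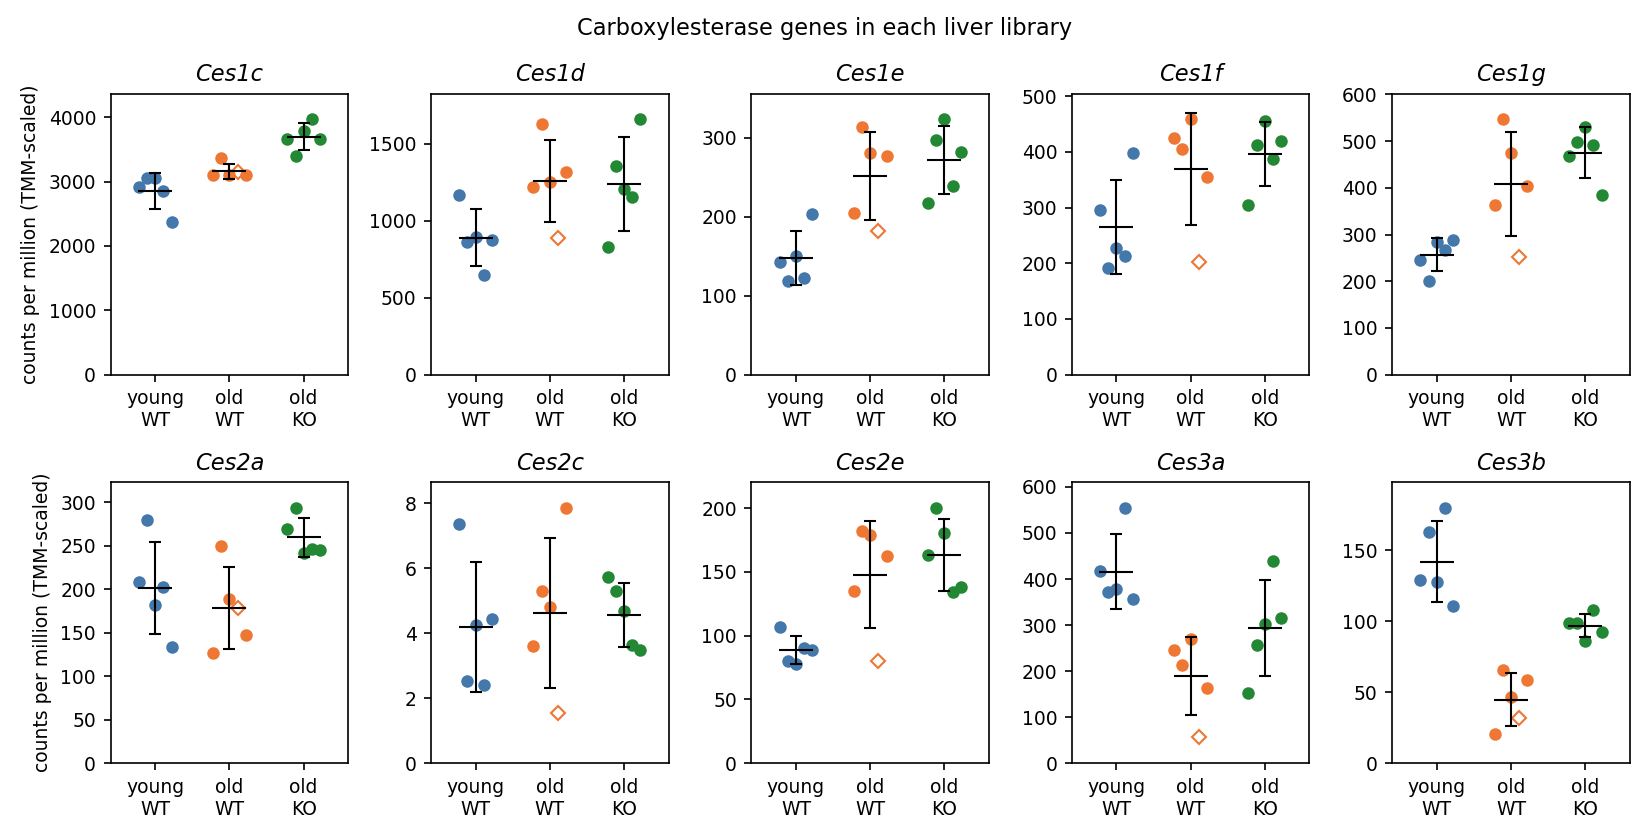
TMM-scaled CPM of the 10 carboxylesterase genes in each of 15 liver libraries (y axis from 0 in each panel) for young WT, old WT and old KO mice; black lines are means and bars 1 SD, n = 5, and the open diamond is old WT 7. Ces3a and Ces3b are lower in every old WT than in every young WT library, and old WT 7 is the lowest old WT library for 7 of the 10 genes.

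The comparison of old KO with old WT liver asked what loss of S6K1 changed at 600 days. It shares the old WT libraries with the comparison of age, so that a low or high old WT library moves both. Ces3b was higher in old KO liver, by 2.17-fold, and it was the only one of the 10 that passed the test. As background, 0.112% of all genes passed as higher and 0.421% as lower in this comparison. Of the 10 log2 fold changes, 8 were above 0 and the median was 0.18, beside 0.00 over all genes.

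Ces3b had 98.7, 98.9, 85.9, 107.6 and 92.6 CPM in the old KO libraries, all above the 20.2 to 65.5 CPM of old WT liver. The log2 fold change was 1.12 (SE 0.237, adjusted p = 0.0459). This call sat at the threshold. It was lost in 13 of the 15 fits that left out 1 library each, with adjusted p from 0.0454 to 0.101 over the 15 and log2 fold changes from 0.93 to 1.30. It held by DESeq2 (adjusted p = 0.00065) and was lost by limma voom (adjusted p = 0.0511), and without old WT 7 the log2 fold change was 1.02 (adjusted p = 0.0994).

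Ces1c came next in separation. Its old KO libraries had 3661, 3403, 3782, 3972 and 3661 CPM, and the lowest of them was just above the highest old WT library, at 3361 CPM. Its log2 fold change was 0.23 (SE 0.0892, adjusted p = 0.317), or 0.22 (adjusted p = 0.389) without old WT 7. Ces1c and Ces3b were the 2 members with all old KO libraries above all old WT libraries, beside 1.12% of all genes, and 0 members had all of them below, beside 2.08% of all genes.

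Ces2a had 269.5, 294, 242, 247 and 245 CPM in old KO liver, against 127, 249.9, 188, 179 and 147 CPM in old WT liver. One old WT library, old WT 4, lay within the old KO range. Its log2 fold change was 0.54 (SE 0.181), with an unadjusted p of 0.00843 in the edgeR fit and an adjusted p of 0.223. Without old WT 7 it was 0.54 (adjusted p = 0.278). Ces3a had 152, 256, 302, 440.2 and 316 CPM in old KO liver and overlapped old WT liver, with a log2 fold change of 0.63 (SE 0.323, adjusted p = 0.476), or 0.39 (adjusted p = 0.563) without old WT 7.

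The 3 members that had risen with age showed no difference between genotypes that passed the test. The log2 fold changes were 0.11 for Ces1e (SE 0.17, adjusted p = 0.868), 0.22 for Ces1g (SE 0.166, adjusted p = 0.667) and 0.14 for Ces2e (SE 0.181, adjusted p = 0.825). Ces1d, Ces1f and Ces2c had values of -0.02, 0.10 and -0.01, with adjusted p of 0.987, 0.915 and 0.995. Leaving out old WT 7 gave 0.01 for Ces1e, 0.08 for Ces1g, -0.02 for Ces2e, -0.13 for Ces1d, -0.06 for Ces1f and -0.24 for Ces2c, with adjusted p from 0.825 to 0.991.

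Old KO liver was also set against young WT liver. This comparison shares its old KO libraries with the one above and its young WT libraries with the comparison of age, so its values are given beside theirs and are no separate evidence. Ces1c, Ces1e, Ces1g and Ces2e were higher in old KO than in young WT liver, by 1.30-fold, 1.84-fold, 1.85-fold and 1.84-fold, and these 4 were the members that passed. Of all genes, 12.0% passed as higher and 11.3% as lower. The median log2 fold change of the members was 0.43, beside -0.01 over all genes.

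Ces1c had a log2 fold change of 0.38 (SE 0.0893, adjusted p = 0.00727), the smallest fold among the 4, with a spread between libraries of 207 CPM (SD) around 3696 CPM in old KO liver. Its 3 groups lay one above another without overlap, from 2378 to 3052 CPM in young WT through 3098 to 3361 CPM in old WT to 3403 to 3972 CPM in old KO liver. Ces1e, with 218, 297, 324, 239 and 282 CPM in old KO liver, was above all young WT libraries, at a log2 fold change of 0.88 (SE 0.172, adjusted p = 0.00226). Ces1g, with 468, 498, 531, 492 and 386 CPM, reached 0.89 (SE 0.167, adjusted p = 0.00189). Ces2e, with 163, 200.4, 180.1, 134 and 138 CPM, reached 0.88 (SE 0.182, adjusted p = 0.00328). These 4 members had no overlap between old KO and young WT liver, beside 7.32% of all genes with all old KO libraries above.

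Ces3b was below young WT liver in all 5 old KO libraries, at 85.9 to 107.6 against 110.4 to 179.9 CPM, as 6.56% of all genes were. Its log2 fold change of -0.55 (SE 0.234) did not pass (adjusted p = 0.0974), and it passed without old WT 1 (adjusted p = 0.0296). Ces3a had -0.50 (SE 0.322, adjusted p = 0.271). Ces1d (0.48, SE 0.189, adjusted p = 0.0756), with 826, 1355, 1207, 1151 and 1660.1 CPM in old KO liver, passed without old KO 1 (adjusted p = 0.0294) or young WT 1 (adjusted p = 0.0434). Ces1f (0.58, SE 0.216, adjusted p = 0.0634), with 304, 413, 456, 387 and 420.1 CPM in old KO liver, passed without young WT 6 (adjusted p = 0.0117) or old WT 7 (adjusted p = 0.0243). Ces2a had 0.37 (SE 0.181, adjusted p = 0.153), and it passed without young WT 2 (adjusted p = 0.0483). Young WT 1 for Ces1d, young WT 6 for Ces1f and young WT 2 for Ces2a were the highest young WT libraries. Old KO 1 was the lowest old KO library for Ces1d. Leaving these out raised the fold changes by construction, so those passes are no separate evidence of a rise. Ces2c, at 3.48 to 5.73 CPM in old KO liver, had 0.12 (SE 0.354, adjusted p = 0.831).

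**Figure D3:**
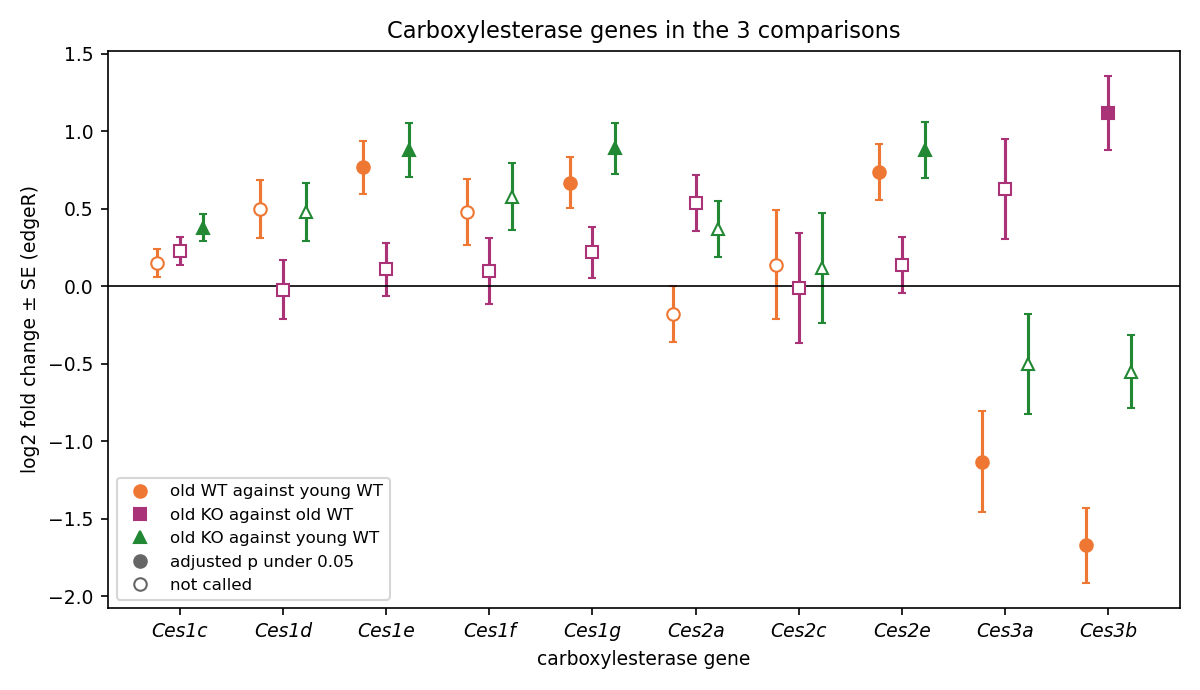
Log2 fold changes with their SE from the edgeR fit (y axis) of the 10 carboxylesterase genes (x axis) for old WT against young WT, old KO against old WT and old KO against young WT; filled symbols have an adjusted p under 0.05. Ces3b is at -1.67 with age and at 1.12 for old KO against old WT, while Ces1e, Ces1g and Ces2e are higher in both old groups than in young WT.

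Likeness between genes was measured as the root mean square difference of log2 CPM, each gene centred on its mean over the 15 libraries. A lower value means a more similar pattern, and the measure shows nothing of shared control. Among members, Ces1g and Ces2e were close, at 0.19, and Ces1e was 0.21 from Ces1g, beside a spread of each gene about its own mean of 0.457 to 0.478. Ces3a and Ces3b were 0.673 from each other, which was smaller than the spread of either about its own mean, 0.778 and 0.838. Outside the family, Dhrs7, a short-chain dehydrogenase gene, was the gene most like Ces1e (0.18), Ces1g (0.135) and Ces2e (0.195). After it came Ebpl (0.191) and Supt3h (0.203) for Ces1e, Cyb5b (0.151) and Ebpl (0.155) for Ces1g, and Adh1 (0.201) and Tkt (0.203) for Ces2e. The nearest genes to Ces3a were Wnt2 (0.452), Odf3b (0.454) and Cyp2e1 (0.462), and those to Ces3b were Hopx (0.529), 4930512M02Rik (0.531) and Sult5a1 (0.537), all farther than any of those named for the rising members.

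**Figure D4:**
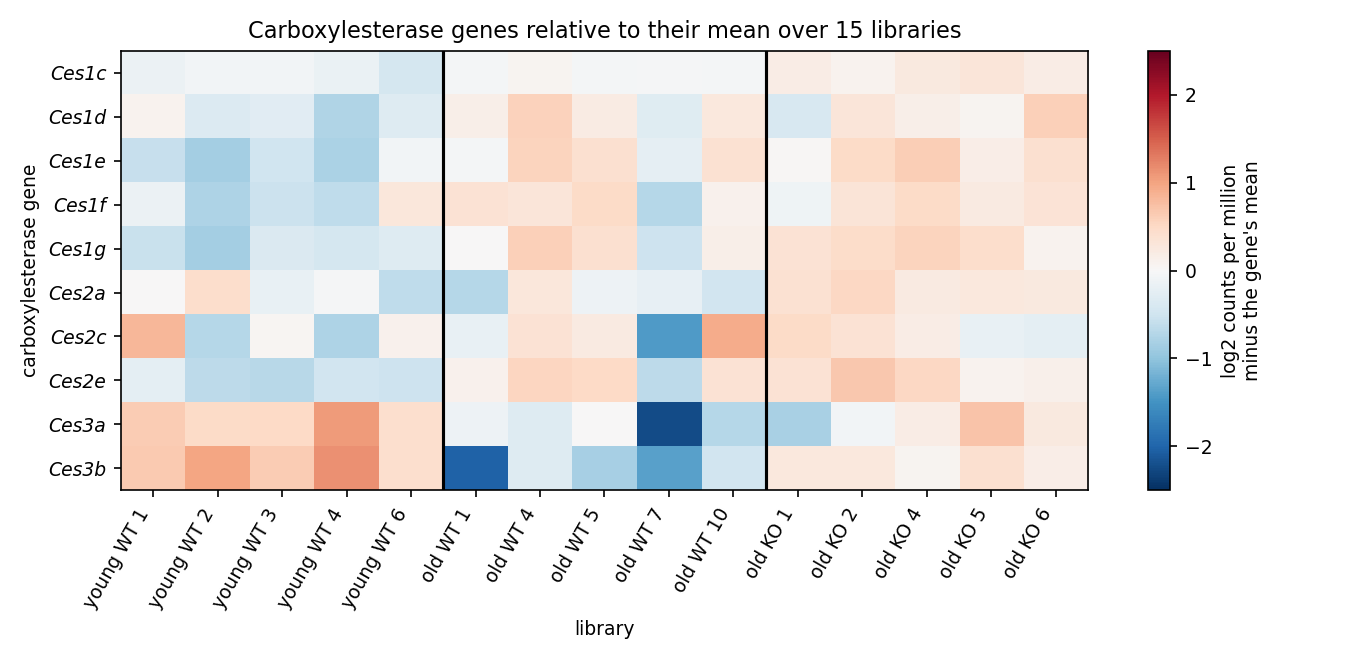
Log2 CPM of the 10 carboxylesterase genes minus each gene's mean over 15 libraries, by library (x axis) and gene (y axis), with vertical lines between young WT, old WT and old KO. Ces3a in old WT 7 and Ces3b in old WT 1 are the lowest values, 2.23 and 2.02 below their means.

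Of the 10 other carboxylesterase genes, 3 were abundant enough to test, Ces1b, Ces2b and Ces2g, and the other 7 had group means under 1 CPM. With age and with genotype, 0 of the 3 passed in either direction, and Ces2g was higher in old KO than in young WT liver (42.2 ± 9.38 against 30.1 ± 0.839 CPM, log2 fold change 0.49, adjusted p = 0.0224). Ces1b, which shares 10.68% of the 50-base stretches of Ces1c, had 135 ± 36.2 CPM in young WT, 94.2 ± 27.7 in old WT and 149 ± 21.5 in old KO liver, with adjusted p of 0.08 for age and 0.172 for genotype.

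Around the members, 34 other genes lay within 250 kb and 21 of them were tested. Ces1b, Ces2b and Ces2g, described above, are not among the 21. With age, 2 of the 21 were called higher and 2 lower, beside 9.92% and 8.91% of all genes. The median log2 fold change of the 21 with age was 0.04. With genotype 0 were called, with a median of -0.05. The 4 neighbours called with age were Fam96b and Fbxl8, higher, and Cbfb and D230025D16Rik, lower, all beside the Ces2 and Ces3 cluster, and they are named because they are few.

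The related lists hold genes of the same reactions or regulators. Among 17 tested lipid hydrolases and cofactors other than carboxylesterases, 0 passed as higher with age and 2 as lower. These were Pnpla2, which encodes adipose triglyceride lipase (142 to 60.4 CPM, log2 fold change -1.23, adjusted p = 0.0014), and Lipe, which encodes hormone-sensitive lipase (-0.42, adjusted p = 0.0367). Aadac, another lipase of the hepatocyte endoplasmic reticulum, had 333, 350.4 and 398 CPM in young WT, old WT and old KO liver, with adjusted p of 0.586 for age and 0.44 for genotype, and it passed for old KO against young WT (log2 fold change 0.26, adjusted p = 0.0441). Among 17 genes of lipoprotein assembly and triglyceride synthesis, 2 were higher with age (Dgat2, 0.54, and Soat2, 0.41) and 4 lower, led by the lipid droplet gene Cidec (-3.21) and by Apoa4 (-1.57), while Mttp, the transfer protein of lipoprotein assembly, had -0.22 (adjusted p = 0.319).

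Among 20 other ester, epoxide and glucuronide hydrolases, 3 were higher with age, Acot3 (0.96), Bphl (0.59) and Pon3 (0.26), and 0 were lower. The xenobiotic receptors CAR (Nr1i3) and PXR (Nr1i2), which are known to drive several Ces genes, had log2 fold changes with age of -0.06 (adjusted p = 0.788) and -0.14 (adjusted p = 0.472). The list of 23 receptors and hepatocyte transcription factors also holds Por, a reductase gene that is neither. In it, 3 genes were higher with age, Cebpa (0.33, adjusted p = 0.0453), Nr3c1 (0.32, adjusted p = 0.0438) and Nfe2l2 (0.3, adjusted p = 0.0173). The 1 that was lower was Por itself (-0.88, adjusted p = 0.0089). These are RNA levels, and the activity of the receptors and factors was not measured. Of 29 target genes of CAR and PXR other than carboxylesterases, 9 were higher and 4 lower with age, and Por is counted among those 4 again. In the comparison of genotype, these lists gave 1 call in all, the CAR and PXR target Cyp2c54 (log2 fold change 3.36 for genotype, adjusted p = 0.0223). Cyp2c54 had 192 ± 72.5 CPM in young WT, 18.7 ± 11.8 in old WT and 192 ± 183 in old KO liver. The old KO libraries ran from 50.6 to 497 CPM.

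Markers of other cells moved with the groups. Of 13 Kupffer cell and macrophage markers, 8 fell in old KO against old WT liver, and their summed level was 189 to 296 CPM in old KO and 334 to 746 CPM in old WT liver. Of 12 lymphocyte markers, 6 rose with age, from 5.28 to 10.5 CPM in sum in young WT to 16.8 to 43.6 CPM in old WT liver. The summed hepatocyte markers, 11 genes led by Alb, had medians of 136303 CPM in young WT, 106342 CPM in old WT and 126559 CPM in old KO liver. Their range was 89348 to 142784 CPM in young WT, 102281 to 150462 CPM in old WT and 125373 to 162164 CPM in old KO liver. The young WT range overlapped both others, also without old WT 7. Without old WT 7, the highest of its group, old WT liver reached 113488 CPM and lay below every old KO library. Of the 11, 1 was higher with age (Ambp, log2 fold change 0.33) and 2 were lower (Cps1, -1.27, and Apoa1, -0.69), 0 passed for genotype, and 3 were higher in old KO than in young WT liver. With age, 3 of 8 endothelial markers were lower, 2 of 7 bile duct markers were higher, and of 8 stellate cell markers 1 was higher and 2 lower. The part of these shifts in the results for the carboxylesterases was not tested. For other tissues that make carboxylesterases, the intestinal genes Sis, Cdx1, Cdx2 and Alpi had 0 counts in all 15 libraries, as did the kidney genes Kap, Slc12a1 and Aqp2, and 6 of 10 adipocyte markers had means under 1 CPM in each group. The fatty acid binding protein gene Fabp2, at 75.4 CPM on average, was the only one of 8 intestinal markers with group means above 1 CPM, and Plin4, at 47.5 CPM, led the adipocyte markers.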

How the data were processed

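Whole-liver RNA was made into stranded poly(A) libraries and sequenced as single-end 50-base reads. The authors used CASAVA and TopHat2 2.0.11 with the mm9 genome and counted reads per gene with HTSeq. DESeq2 1.18.1 is also named in the submitters' processing notes. The deposited values are raw counts, 1 column a library and not normalized, and the annotation and strand setting of the counting are not given in the sources used here. Reads that fit several close relatives may have been dropped or given to a sister gene, which lowers or mixes the counts of similar members.

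Groups came from the sample titles. In edgeR 4.0.16 (R 4.3.3), TMM scaling and the filterByExpr filter left 14258 of 37991 genes, which entered 1 quasi-likelihood fit over 15 libraries (common biological coefficient of variation 0.189). Adjusted p-values are Benjamini-Hochberg over all genes tested and come from this fit unless another tool is named. The SE of a log2 fold change was derived from the same test, as its absolute value divided by the square root of the F statistic. With 21801754 to 38065359 counts a library, counting error is small for all members but Ces2c. Positions, exon lengths and coding sequences came from GENCODE M1 (NCBIM37, the build called mm9), and coding identity from Biopython 1.88 alignments. Levels per length are TMM-scaled CPM per kb of merged exons. On simulated counts for old WT against young WT (14109 genes), the fit recovered 50 of 50 genes raised by a log2 fold change of 2, 50 of 50 lowered by it, 44 of 50 raised by 1 and 37 of 50 lowered by 1, and called 5 of 13909 unchanged genes. Those counts were drawn from edgeR's own model and its estimates of spread, with no outlying library. Changes smaller than a log2 fold change of 1, such as the rises called among the members, were not simulated.

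The members and lists were chosen with earlier results of these data known. The genes named are all members, Rps6kb1, in each list the 3 largest rises and falls among genes that passed for age or genotype, 6 genes named in any case (Gusb, Nr1i2, Nr1i3, Por, Aadac, Mttp), and for each member that passed the 3 genes most like it. Some of those are left out for length. The other carboxylesterase genes, the marker genes listed at 0 counts, Fabp2, Plin4 and the 4 neighbours were named after their values were seen. Of 210 list entries 1 did not match. Alternatives were upper quartile scaling, no filter, a mean of at least 1 CPM, thinned counts, the 10 libraries of a comparison, a replicate block, DESeq2 1.42.0, limma 3.58.1 voom and leaving out each library.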

Additional observations from a re-analysis of the deposited data

Results flagged for a closer look

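In each group of 5 libraries, the gap of the highest or lowest library to the next was divided by the range of the group and compared with Dixon's critical value of 0.71. Over 30 groups (10 members in 3 groups of libraries), 1 was above it, and chance flags about 1 in 20. It was Ces1c in old WT 4, with 3361 CPM against 3098 to 3144 CPM in the other old WT libraries, a gap of 0.823 of the range. The group is tight, and the library lies below all old KO libraries.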

How the results depend on the processing

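Of 690 values of single members under an alternative, 655 stayed on the same side of the threshold, 19 fell behind the threshold, 16 passed it, and 0 of the called values changed sign. The number of members called with age was 4 to 7 when 1 library was left out and 4 to 6 under the other alternatives, and for old KO against young WT it was 4 to 5 and 4 to 6. The count with genotype was 0 to 1 over the fits that left out 1 library, 0 with the 10 libraries of the contrast alone, 0 by limma voom and 0 with the replicate block, and the cause was not tested. In those fits the adjusted p of Ces3b was 0.0717, 0.0511 and 0.261. By edgeR on all libraries, 3 members had an unadjusted p under 0.05 for genotype, as did 11.6% of all genes. Libraries with the same number correlated at -0.153 to 0.077 after group means were removed, so the numbers were not taken to pair the samples. With the replicate block, Ces3a lost its call with age (adjusted p = 0.0604), and 899 genes were called with age against 2685 without it, 6 against 76 with genotype and 2334 against 3319 for old KO against young WT. DESeq2 called 3249, 309 and 3778 genes, limma voom 23 and the unfiltered fit 82 with genotype. DESeq2 added Ces1d with age (adjusted p = 0.0422) and Ces1d and Ces1f for old KO against young WT (0.0455 and 0.0354), and the 10 libraries of that contrast added Ces1f (0.046) and Ces3b (0.0118). Of the 10 ranks of level per length, 5 were kept with the length of the longest annotated transcript and 6 with the number of 50-base stretches found in no other gene, an alternative chosen after seeing the data; Ces1c, Ces1d, Ces2e, Ces3b and Ces2c kept theirs in both. On the second scale Ces3a came to 217 and Ces1g to 165 over all libraries, against 146 and 159 on the first, so the order of those 2 depends on it.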
